A study of Mus musculus with 2 samples.

Results

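Cx3cr1, Ccr2 and Ccr7 are 3 chemokine receptor genes, taken by name from the 17683 genes listed in at least 1 of 2 single-cell count matrices of immune cells from mouse retina. They were followed across cell classes that were set from marker genes other than these 3. The Igfbpl1 library came from B6 mice with microbead-induced glaucoma treated with Igfbpl1, and the PBS library from B6 mice with the same glaucoma given PBS. Each was a pool of 10 mice aged 8 to 10 months, perfused with saline, whose retinas were digested with collagenase/dispase, papain and DNase for 1 h before CD45-positive cells were sorted. All mice had glaucoma, so neither library shows the receptors in an untreated healthy retina.

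Chemokine receptors are G protein-coupled receptors that steer the migration of leukocytes along gradients of secreted or membrane-bound chemokines. Cx3cr1 binds fractalkine (Cx3cl1), which neurons carry on their surface, and is the receptor by which microglia, the resident macrophages of the retina, are commonly marked. Ccr2 binds Ccl2, Ccl7 and Ccl12 in the mouse and is needed for inflammatory monocytes to leave the bone marrow and enter tissue. Ccr7 binds Ccl19 and Ccl21 and brings naive T cells, B cells and maturing dendritic cells to lymph nodes.

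Transcripts were counted by unique molecular identifiers (UMIs). The Igfbpl1 matrix had 9463631 UMIs over 3330 cells (median 2355.5 per cell), and the PBS matrix had 3795008 UMIs over 1055 cells (median 3433). No cell barcode was shared. With 1 library per treatment no treatment effect could be tested. Differences are between 2 libraries, and every interval is an exact 95% interval that covers counting error only, not the spread between mice. A cell was named when it carried at least 3 markers of a list and at least 1 more than of any other list, which left 475 cells unnamed. Microglia-like cells numbered 1609 of the Igfbpl1 cells (48.3%) and 794 of the PBS cells (75.3%). Although the sort was for CD45, 137 Igfbpl1 and 69 PBS cells carried mainly markers of retinal neurons, which should lack all 3 receptors and give the background.

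In mm10, Cx3cr1 (ENSMUSG00000052336.7) lies on the minus strand at chr9:119901616-120069879, Ccr2 (ENSMUSG00000049103.14) on the plus strand at chr9:124101950-124113557 and Ccr7 (ENSMUSG00000037944.8) on the minus strand at chr11:99144196-99155077.

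Cx3cr1 was mainly counted in microglia-like cells and Ccr7 in migratory dendritic-like and B-like cells, while Ccr2 was spread over several classes. Over all cells Cx3cr1 had 1008 CPM (the gene's UMIs per 1000000 UMIs of the cells summed) in the Igfbpl1 library and 2417 CPM in the PBS library, a ratio of 0.417 (0.405 to 0.429). Ccr2 had 125 CPM in the Igfbpl1 library (1179 UMIs in 574 cells) and 14.0 CPM in the PBS library (53 UMIs in 16 cells), a ratio of 8.92 (6.77 to 12). Ccr7 had 55.9 CPM in the Igfbpl1 library (529 UMIs in 174 cells) and 10.8 CPM in the PBS library (41 UMIs in 29 cells), a ratio of 5.17 (3.76 to 7.29). The mix of cells differed between the libraries, and of all measured genes, those with a mean of at least 50 CPM and at least 20 UMIs, 11.1% were at least 1.5-fold higher and 22.4% at least 1.5-fold lower over all cells. Microglia-like cells held 89.9% of the Cx3cr1 UMIs of the Igfbpl1 library and 97.1% of those of the PBS library. Monocyte-like cells held 34.8% of Ccr2 UMIs in the Igfbpl1 library, and migratory dendritic-like cells 66.4% of its Ccr7 UMIs, whereas B-like cells held 75.6% of the Ccr7 UMIs of the PBS library.

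**Figure D1:**
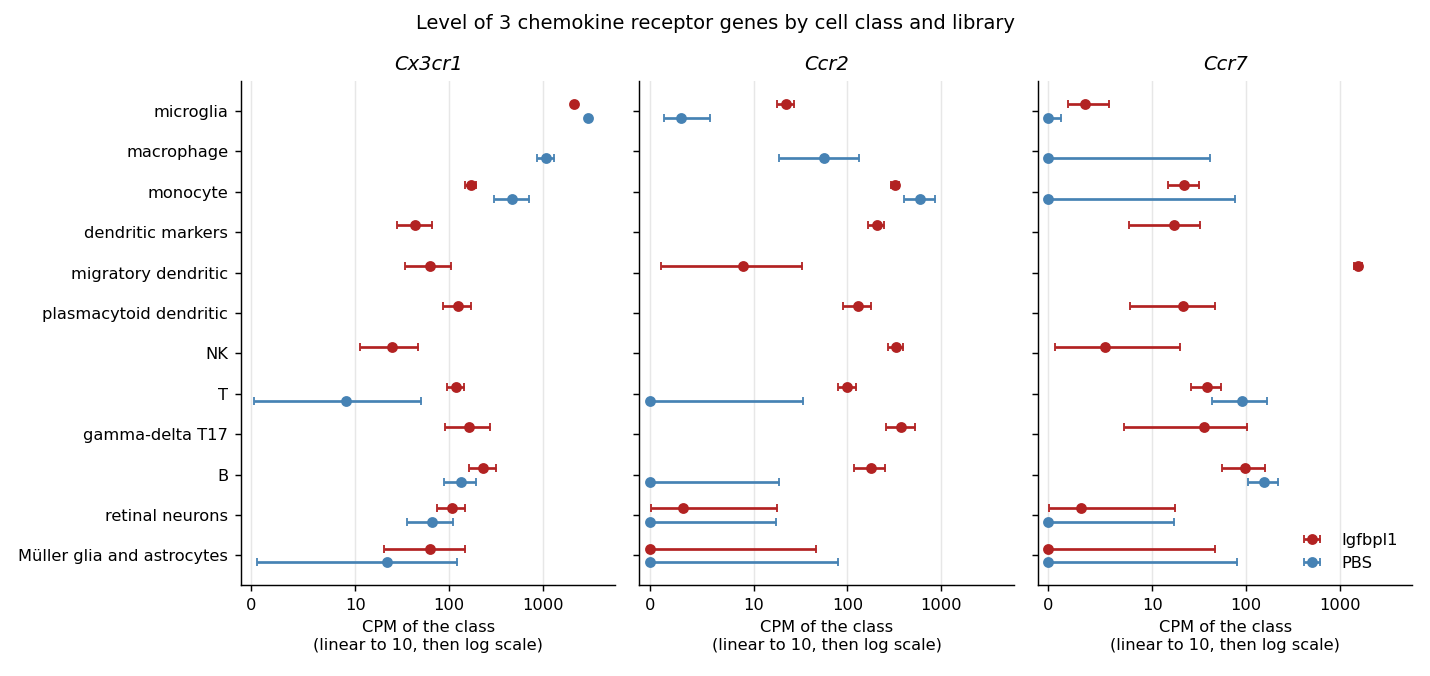
Level of Cx3cr1, Ccr2 and Ccr7 in CPM of the class (linear to 10, then log scale) for Igfbpl1 (upper points) and PBS (lower points), with exact Poisson 95% intervals, for classes with at least 10 cells in a library. Cx3cr1 was highest in microglia-like cells at 2144 CPM in Igfbpl1 and 3021 CPM in PBS, and Ccr7 in Igfbpl1 migratory dendritic-like cells at 1572 CPM.

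Cx3cr1 was lower in microglia-like cells of the Igfbpl1 library, at 2144 CPM (2099 to 2189.6, 8570 UMIs) against 3021 CPM in the PBS library (2959 to 3085, 8906 UMIs), a ratio of 0.710 (0.689 to 0.731). On the log2(CPM + 10) scale this was a difference of -0.49, beside a median of -0.12 over the 3334 genes measured in these cells, of which 9.42% lay lower still. The difference did not reach 1.5-fold, which 3.99% of the measured genes passed upwards and 5.28% downwards. After thinning each cell to 1000 UMIs, 82.7% of Igfbpl1 microglia-like cells (80.8 to 84.5%) and 89.4% of PBS microglia-like cells (87.1 to 91.5%) had a Cx3cr1 UMI. Without thinning these were 94.3% and 98.4%, at median depths of 2100 and 3547.5 UMIs. In retinal neurons, with medians of 2002 UMIs in Igfbpl1 and 2336 UMIs in PBS, the thinned shares were 4.38% and 5.80%, and the level was 108 CPM in Igfbpl1 and 65.3 CPM in PBS. In the PBS neurons 11 of the 14 UMIs came from 1 cell.

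The difference was present in each of the 4 main microglial clusters, with different sizes. Clusters were made without the 3 receptors. The PBS microglia-like cells lay mostly in cluster 0 (53.5%), the Igfbpl1 ones most often in cluster 1 (29.9%), which was led by Ccl12, Ccl4, Ccl3, Ccl2 and Hmox1. In cluster 0, led by genes such as P2ry12 and Gpr34, Cx3cr1 had 2785 CPM in Igfbpl1 and 3193 CPM in PBS, a ratio of 0.872 (0.827 to 0.919). Cluster 5, which shared many of its leading genes with cluster 0, had a ratio of 0.820 (0.768 to 0.875). In cluster 1 the levels were 2316 CPM in Igfbpl1 and 2686 CPM in PBS (ratio 0.862, 0.783 to 0.952). The lowest ratio of the 4 was in cluster 4, led by Apoe and the lysosomal genes Cd63 and Ctsd, at 0.687 (0.638 to 0.739), with 1856 CPM in Igfbpl1 and 2703 CPM in PBS. The intervals of the ratios in clusters 4 and 0 did not overlap. Without clusters 3 and 18, the class held 2274 CPM in Igfbpl1 and 3092 CPM in PBS, a ratio of 0.736.

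Cells were also split by their UMIs of the activation genes Ccl2, Hmox1, Il1b, Atf3, Cd83 and Ccl12. After thinning, Cx3cr1 had 2486, 2382, 2257 and 2213 CPM in Igfbpl1 microglia-like cells with 0, 1 to 5, 6 to 15 and 16 or more activation UMIs. In PBS microglia-like cells the same bins held 2911.5, 2965, 2854 and 2333 CPM, the last from 15 cells only. In the bins of 1 to 5 and 6 to 15 UMIs the intervals of the libraries did not overlap, whereas within a library those of neighbouring bins did. Split by 8 interferon-response genes, cells with 0 of their UMIs had 2316 CPM in Igfbpl1 (2229 to 2405) and 3007 CPM in PBS (2878 to 3141). With 1 to 2 UMIs the levels were 2219 CPM in Igfbpl1 (2062 to 2384) and 2505 CPM in PBS (2197 to 2845), with overlapping intervals. With 3 or more UMIs Igfbpl1 was not the lower one, at 2239 CPM (109 cells) against 2182 CPM in PBS (22 cells), again with overlapping intervals. The libraries also differed in the sex of their cells: 582 Igfbpl1 and 197 PBS microglia-like cells had Xist UMIs and none of 4 Y-linked genes, and 422 Igfbpl1 and 374 PBS cells the reverse. Among the Xist-only cells the Cx3cr1 ratio was 0.614 (0.580 to 0.649), and among the Y-only cells 0.797 (0.760 to 0.836).

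**Figure D2:**
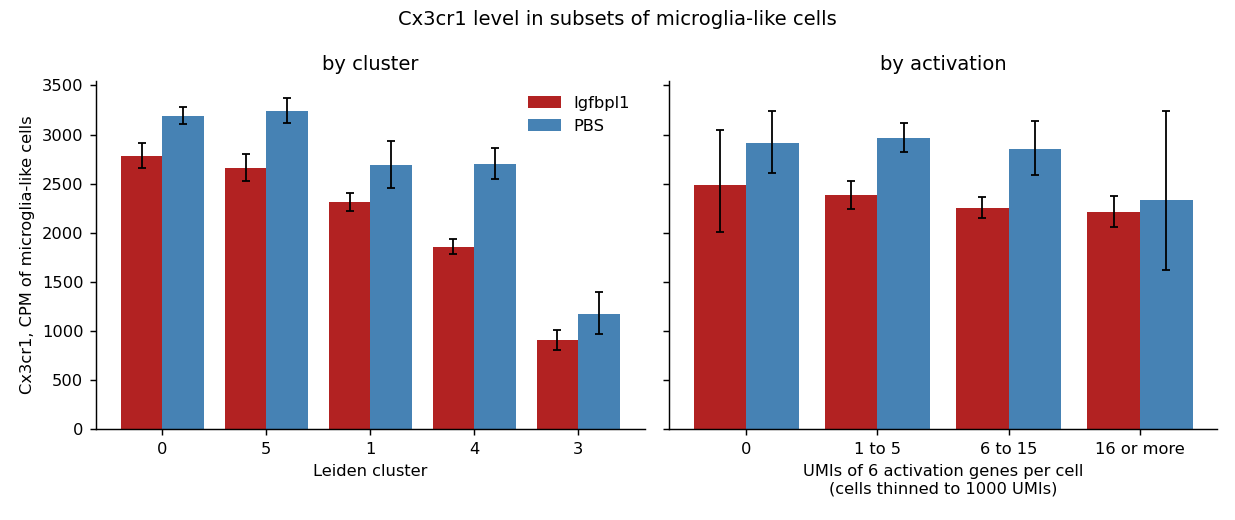
Cx3cr1 in CPM of microglia-like cells for Igfbpl1 (left bars) and PBS (right bars), with exact Poisson 95% intervals, by Leiden cluster and by UMIs of 6 activation genes per thinned cell. Igfbpl1 was lower in every cluster shown, from 2785 CPM beside 3193 CPM in cluster 0 to 904 CPM beside 1169.6 CPM in cluster 3.

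Outside microglia-like cells Cx3cr1 was lower. Among classes with at least 10 cells in a library, macrophage-like cells of the PBS library came next, with 1087 CPM (880 to 1327) in 18 cells, followed by PBS monocyte-like cells with 476 CPM (302 to 715) in 11 cells. In the Igfbpl1 library the order was B-like (231 CPM), monocyte-like (172 CPM), gamma-delta T17-like (165 CPM, of which 13 of 14 UMIs came from 1 cell), plasmacytoid dendritic-like (125 CPM), T-like (118 CPM) and retinal neurons pooled (108 CPM), with overlapping intervals between neighbours. Of the 38 UMIs of these B-like cells, 30 lay in 19 cells outside the B cluster (315 CPM). The 47 cells inside it had 8 UMIs, or 116 CPM (49.9 to 228). Migratory dendritic-like cells had 62.7 CPM, the class set by dendritic markers 43.6 CPM and NK-like cells 24.7 CPM. B-like cells of the PBS library had 135 CPM, with 21 of 27 UMIs from 1 cell, and T-like cells 9.14 CPM, from 1 UMI. Taken apart from the other neurons, cells with rod markers had 894 CPM in Igfbpl1 (9 cells) and 287 CPM in PBS (33 cells, with 11 of 14 UMIs from 1 cell). The 5 macrophage-like cells of the Igfbpl1 library had 421 CPM, and 7 cells with endothelial and mural markers had 188 CPM from 3 UMIs.

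These low levels were set beside the UMIs of 4 microglial genes (P2ry12, Tmem119, P2ry13 and Gpr34) in the same cells. All 4 were also on the microglia marker list, so cells with several of them tended to be named microglia-like. The naming rule can thus lower the UMIs at the microglial ratio in other classes, by an amount that was not tested. In Igfbpl1 microglia-like cells of clusters 0, 1, 4, 5 and 12 there were 0.978 Cx3cr1 UMIs per UMI of these genes. At that ratio, 8.80 Cx3cr1 UMIs would accompany the microglial UMIs of NK-like cells, where 9 were counted. In the class set by dendritic markers the numbers were 23.5 and 23, and in plasmacytoid dendritic-like cells 30.3 and 35. T-like cells had 96 Cx3cr1 UMIs, against 60.6 at the microglial ratio. Those in the T cluster had 17, against 26.4, and those outside it 79, against 34.2. B-like cells had 38 Cx3cr1 UMIs, against 26.4. Retinal neurons had 34 Cx3cr1 UMIs, of which 19 came from 9 cells with rod markers, against 18.6 at the microglial ratio. Monocyte-like cells had 219 Cx3cr1 UMIs, against 73.3 at the microglial ratio, and all cells of cluster 3 had 811, against 369.6. In the PBS library, at its own microglial ratio of 0.793, B-like cells had 27 Cx3cr1 UMIs (21 from 1 cell), against 23.8, retinal neurons had 14 (11 from 1 cell), against 25.4, and cluster 3 had 286, against 125. The part of RNA from microglia in these levels was not tested further.

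Ccr2 was highest in lymphoid and monocytic classes. In the Igfbpl1 library it had 322 CPM in monocyte-like cells (292 to 355), 329 CPM in NK-like cells (273 to 394) and 376 CPM in gamma-delta T17-like cells (257 to 531), whose intervals overlap. It was 205 CPM in the class set by dendritic markers, which had 0 of its own markers among its leading genes and is not named further. B-like cells had 177 CPM, plasmacytoid dendritic-like cells 128 CPM, T-like cells 99.3 CPM and migratory dendritic-like cells 8.96 CPM. After thinning, 27.5% of monocyte-like cells and 26.8% of NK-like cells had a Ccr2 UMI, against 0 of 137 retinal neurons, which allows up to 2.66%. Retinal neurons had 1 Ccr2 UMI in Igfbpl1 and 0 in PBS. In the PBS library Ccr2 rested on 53 UMIs, of which 29 came from 4 of 11 monocyte-like cells. These 11 cells had 601 CPM (402 to 863), above the 322 CPM of Igfbpl1 monocyte-like cells and with no overlap of the intervals, and 3 cells held 86.2% of their Ccr2 UMIs. Of the 11, 10 lay in cluster 13, where monocyte-like cells had 423 CPM in PBS (251 to 668) and 420 CPM in Igfbpl1 (235 to 694, 15 cells). The 1 PBS monocyte-like cell of cluster 3 held 11 of the 29 UMIs.

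The Igfbpl1 cells named monocyte-like lay mostly in 2 clusters, and 159 of the 320 were at the limit of the naming rule (just 3 markers or a lead of just 1). In the Igfbpl1 library 144 lay in cluster 3, led by Lyz2, Apoc2 and Apoe, and had 435 CPM of Ccr2 (385 to 489) and 280 CPM of Cx3cr1 (241 to 324). A further 157 lay in cluster 15, led by Ifitm1 and MHC class II genes, which as a whole was assigned to the dendritic marker list and also held 91 of the 101 cells of the class set by dendritic markers. These 157 cells had 196 CPM of Ccr2 (162 to 235) and 49.9 CPM of Cx3cr1 (33.4 to 71.6). Neither pair of intervals overlapped. The MHC class II gene H2-Aa stood at 5887 CPM in the cluster 3 cells and 9127 CPM in the cluster 15 cells. Of the 175 Igfbpl1 monocyte-like cells with a Ccr2 UMI, 72 (41.1%) also had a Cx3cr1 UMI, against 17.9% of those without Ccr2. After thinning the shares were 13.6% and 7.76%, with depth made equal.

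Among microglia-like cells Ccr2 had 22.0 CPM in Igfbpl1 (88 UMIs in 46 cells) and 3.05 CPM in PBS (9 UMIs in 6 cells), a ratio of 7.21 (3.63 to 16.3). Most of it, 70 UMIs in Igfbpl1 and 8 in PBS, lay in cells of cluster 3, which as a whole was assigned to the monocyte marker list. In clusters 0, 1, 4, 5 and 12 Ccr2 had 8 UMIs in 1536 Igfbpl1 cells and 1 UMI in 771 PBS cells, or 2.23 CPM in Igfbpl1 and 0.352 CPM in PBS. The interval of that ratio of 6.35, from 0.851 to 282, includes 1. The 57 Igfbpl1 microglia-like cells of cluster 3 had 208 CPM (162 to 263), and the 23 PBS ones 74.3 CPM (32.1 to 146). The 10 Igfbpl1 microglia-like cells of cluster 18 had 8 Ccr2 UMIs. That cluster was assigned to the microglia marker list but was led by genes such as Ctla2a and Ifng. The microglia-like cells of cluster 3 also had Cx3cr1 at 904 CPM in Igfbpl1 and 1169.6 CPM in PBS, and in Igfbpl1 a median of 5396 UMIs, against 2100 for the whole class. Over all cells of cluster 3 Ccr2 was higher in Igfbpl1, at 331 CPM (397 cells) against 121 CPM in PBS (58 cells), and Cx3cr1 was lower, at 447 CPM in Igfbpl1 against 1086 CPM in PBS. The makeup of that cluster differed: 144 of 397 Igfbpl1 cells and 1 of 58 PBS cells were monocyte-like, while 4 Igfbpl1 and 16 PBS cells were macrophage-like. The part of this makeup in the levels was not tested. By sex of the cells, Ccr2 of the microglia-like class was at least 5.34-fold higher in Xist-only cells by the lower limit of its interval (47 UMIs in Igfbpl1 against 0 in PBS), while in Y-only cells the ratio was 1.95 (0.534 to 7.81).

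Lymphocytes differed in where their Ccr2 lay. B-like cells had 29 Ccr2 UMIs in the Igfbpl1 library and 0 in the PBS library, at least an 11.8-fold difference taken from 3 counts. All 29 came from 10 of the 19 cells outside the B cluster, and the 47 Igfbpl1 cells inside it had 0, for which 3 counts would be 43.4 CPM. Of the 19 cells, 16 lay in cluster 3, and the 19 had a median of 4587 UMIs, against 1270 inside the B cluster. T-like cells had 81 Ccr2 UMIs in Igfbpl1 and 0 in PBS, at least 2.88-fold by the lower limit of the interval. Inside the T cluster Ccr2 was 59.7 CPM in Igfbpl1 (35 UMIs) against 0 UMIs in PBS, at least 1.68-fold, and the 54 T-like cells outside it had 200 CPM. Of these 54, 27 lay in cluster 9, the gamma-delta T17 cluster, whose 65 cells together had 336 CPM of Ccr2, and 17 lay in cluster 3. Gamma-delta T17-like cells had 26 of their 32 Ccr2 UMIs inside their own cluster. NK-like cells had 339 CPM (280 to 406) inside the NK cluster, beside 14.3 CPM of Cx3cr1, and 127 CPM from 2 UMIs outside it.

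**Figure D3:**
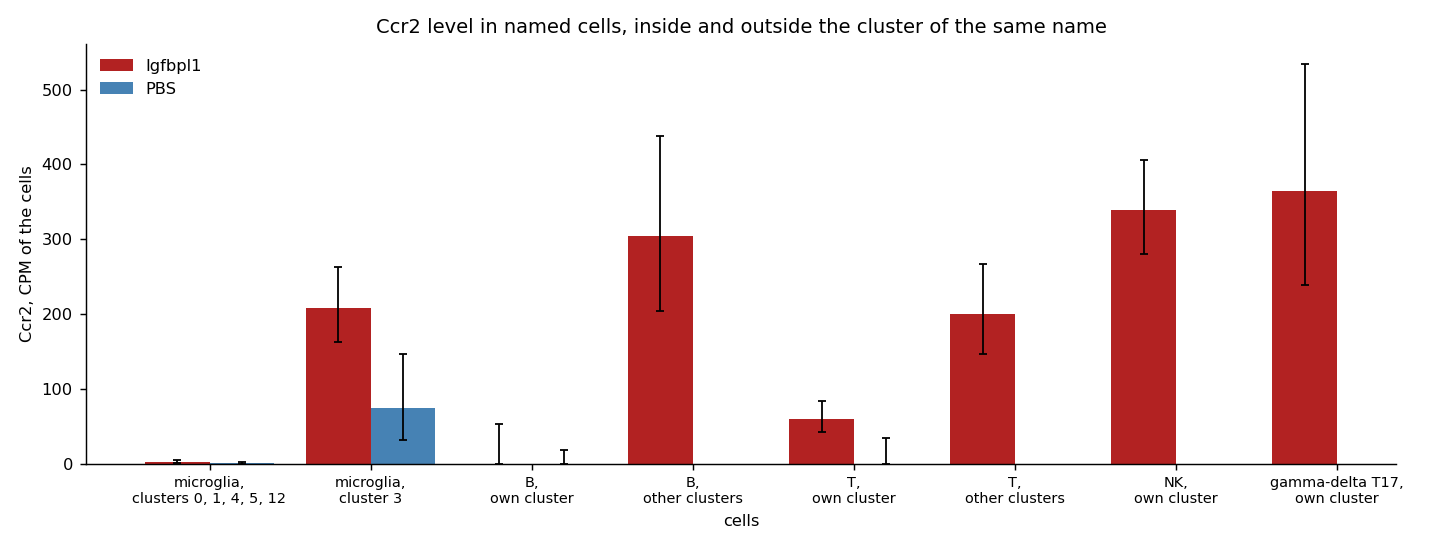
Ccr2 in CPM for Igfbpl1 (left bars) and PBS (right bars), with exact Poisson 95% intervals, in named cells inside and outside the cluster of the same name, where a library had at least 10 such cells. Microglia-like cells had 2.23 CPM in clusters 0, 1, 4, 5 and 12 and 208 CPM in cluster 3 in the Igfbpl1 library.

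Ccr7 was a gene of migratory dendritic-like cells. These 91 cells, present only in the Igfbpl1 library (0 of 1055 PBS cells, where 3 cells would be 0.284%), had 1572 CPM of Ccr7 (1412 to 1746), with a UMI in 78 of 91 cells and, after thinning, in 71.4% (61.0 to 80.4%). Ccr7 was not among the markers that named them. They had 8.96 CPM of Ccr2 and 62.7 CPM of Cx3cr1, where Cx3cr1 came from 14 UMIs beside 10.8 at the microglial ratio. The level was 1686 CPM (1510 to 1876) in the 85 of these cells that lay in their own cluster. The next levels in the Igfbpl1 library were 97.4 CPM in B-like cells, 38 CPM in T-like cells and 35.2 CPM in gamma-delta T17-like cells, where all 3 UMIs came from 1 cell. Monocyte-like cells had 22.0 CPM, plasmacytoid dendritic-like cells 21.4 CPM, the class set by dendritic markers 17.1 CPM and NK-like cells 5.49 CPM. Retinal neurons had 1 Ccr7 UMI in Igfbpl1 and 0 in PBS. Microglia-like cells had 14 Ccr7 UMIs in 10 Igfbpl1 cells and 0 in PBS, at least 2.45-fold by the lower limit of the interval, and in clusters 0, 1, 4, 5 and 12 only 6 UMIs in Igfbpl1.

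In lymphocytes Ccr7 had lower values in the Igfbpl1 library. T-like cells had 38 CPM in Igfbpl1 (25.8 to 54.0, 31 UMIs) against 91.4 CPM in PBS (43.8 to 168, 10 UMIs), a ratio of 0.416 (0.199 to 0.951). Within the T cluster the ratio was 0.467 (0.217 to 1.09), an interval that includes 1. In T-like cells 24.4% of all measured genes were at least 1.5-fold higher and 15.4% at least 1.5-fold lower. The T-like cells differed in makeup. Of the 30 PBS cells, 24 had more markers of naive than of effector T cells, such as Lef1 and Tcf7, against 49 of the 258 Igfbpl1 cells. Among these, Ccr7 had 109 CPM in Igfbpl1 and 112 CPM in PBS, a ratio of 0.971 (0.408 to 2.42). In the 187 Igfbpl1 cells with more effector markers it had 8.79 CPM (2.85 to 20.5), and the 4 such PBS cells had 0 UMIs. B-like cells had 97.4 CPM in Igfbpl1 (55.7 to 158) and 155 CPM in PBS (105 to 219), a ratio of 0.630 (0.322 to 1.19) whose interval includes 1, where 13.8% of measured genes were at least 1.5-fold higher and 23.5% at least 1.5-fold lower. After thinning, 9.09% of Igfbpl1 and 8.64% of PBS B-like cells had a Ccr7 UMI, beside 0.730% of Igfbpl1 retinal neurons and 0 of 69 in PBS, and no order of the B-like cells is read from these.

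**Figure D4:**
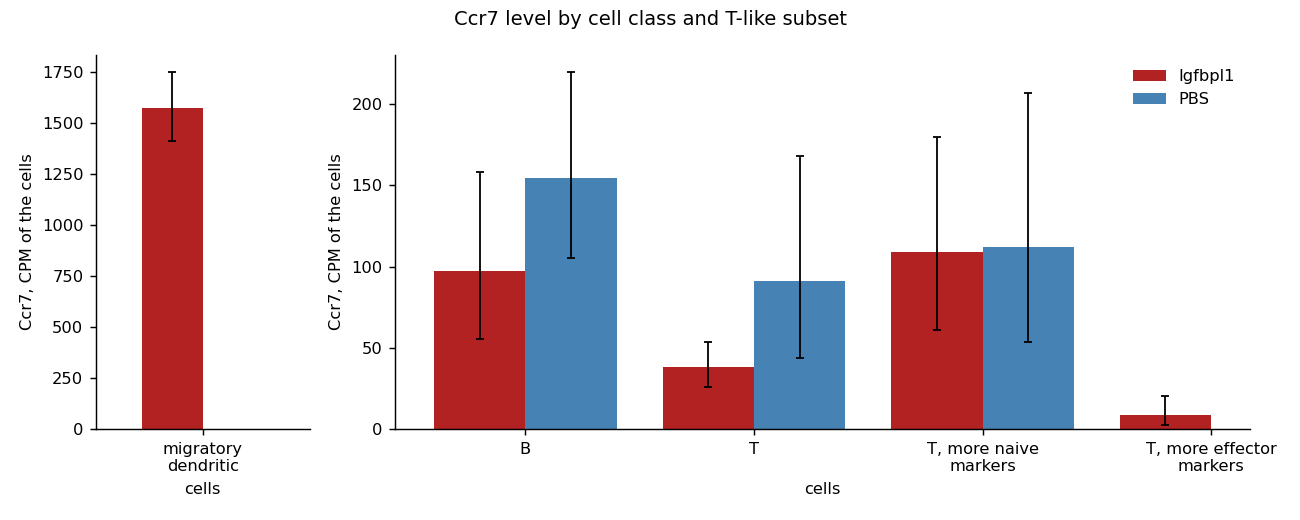
Ccr7 in CPM for Igfbpl1 (left bars) and PBS (right bars), with exact Poisson 95% intervals, where a library had at least 10 such cells; the 2 panels have different scales. T-like cells with more naive markers had 109 CPM in Igfbpl1 and 112 CPM in PBS.

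The ligands of the 3 receptors were unevenly represented. Of 9 ligand genes, 5 were listed in both libraries and 2, Ccl2 and Ccl12, were measured in microglia-like cells, where both were at least 1.5-fold higher (3.99% of all measured genes were), with a median log2 difference of 1.69 against -0.12 over all measured genes. Ccl12 had 3246 CPM in Igfbpl1 and 1183 CPM in PBS, a ratio of 2.74 (2.64 to 2.85). Ccl2 had 1697 CPM in Igfbpl1 and 436 CPM in PBS, a ratio of 3.90 (3.67 to 4.14). Ccl7 had 64.8 and 30.9 CPM in Igfbpl1 and PBS, and Ccl8 5.75 and 6.78 CPM. Cx3cl1 had 28.5 CPM in retinal neurons of Igfbpl1 (9 UMIs) and 23.3 CPM in those of PBS (5 UMIs), and 1 UMI in all microglia-like cells. Ccl19 was listed only in Igfbpl1, with 6 UMIs, of which 4 were in migratory dendritic-like cells. Ccl21a, Ccl21b and Ccl21c were listed in neither library.

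Among 15 other conventional receptors, 10 were listed in both libraries. In microglia-like cells Cxcr4, the receptor of Cxcl12, had 30.5 CPM in Igfbpl1 and 14.9 CPM in PBS, and Ccr1 22.8 and 28.5 CPM. In the Igfbpl1 library Ccr9 was highest in plasmacytoid dendritic-like cells at 889 CPM, which held 249 of its 276 UMIs. Cxcr6 was highest in gamma-delta T17-like cells at 834 CPM (71 UMIs), while T-like cells, at 200 CPM, held 163 of its 297 UMIs. The highest level of Xcr1, a receptor of cross-presenting dendritic cells, was 119 CPM in the class set by dendritic markers. Of 5 atypical receptors, 2 were listed in both libraries and Ccrl2 was measured, with 247 CPM in Igfbpl1 and 123 CPM in PBS, a ratio of 2.0 (1.77 to 2.26). Of 30 signalling gene symbols, 28 were listed in both libraries and 19 were measured, with a median log2 difference of -0.16. The G protein regulator Rgs1 was higher, at 848 CPM in Igfbpl1 and 396 CPM in PBS, and the kinase subunit Pik3cg, named after its value was seen, was lower, at 87.6 CPM in Igfbpl1 and 156 CPM in PBS. Elmo1, which works with Dock2 to activate Rac, had 953 CPM in Igfbpl1 and 1427 CPM in PBS, just short of 1.5-fold, and the G protein subunit Gng5 had 762 CPM in Igfbpl1 and 581 CPM in PBS. Of the signalling genes measured in T-like cells, 3 of 17 were higher and 2 lower, where 24.4% of all measured genes were higher and 15.4% lower. In B-like cells 5 of 16 were higher and 0 lower, where 13.8% of all measured genes were higher and 23.5% lower. In T-like and B-like cells Ccl2, Ccl12 and Ccrl2 were again past 1.5-fold higher, and the part of RNA from microglia in this was not tested.

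**Figure D5:**
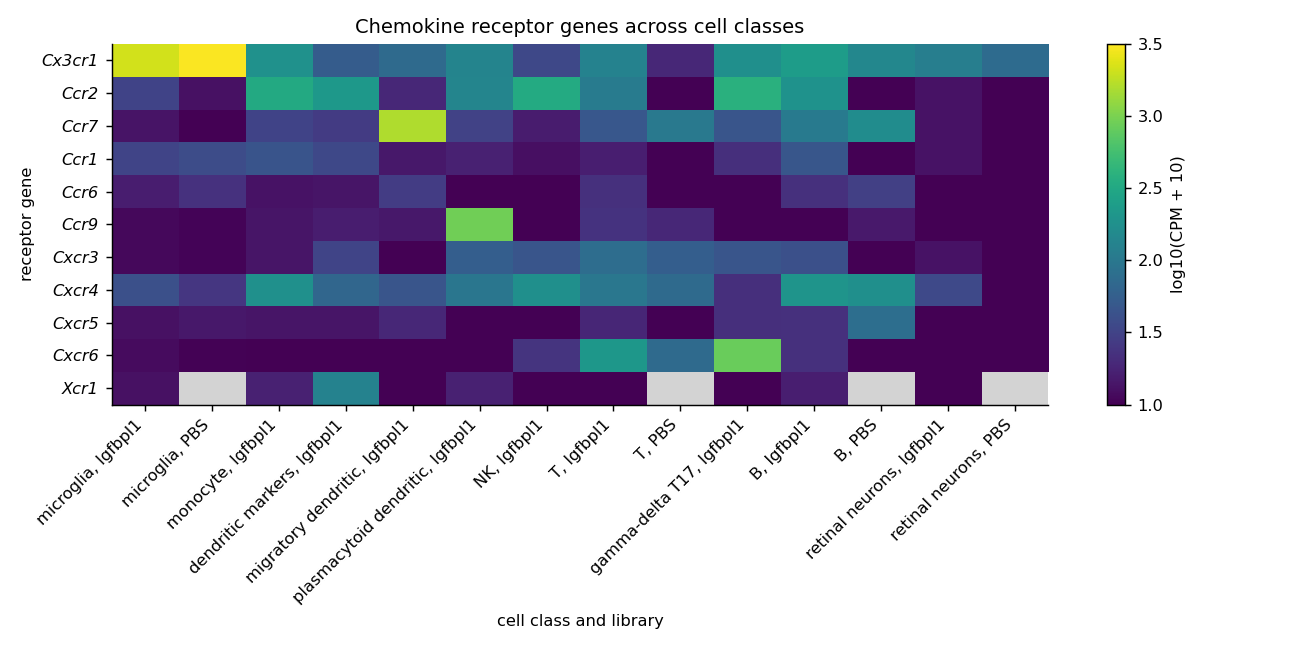
Chemokine receptor genes (rows) across cell classes with at least 20 cells in a library (columns, Igfbpl1 left of PBS), coloured by log10(CPM + 10), with grey where a gene was not listed for that library. Cx3cr1 stood out in microglia-like cells, Ccr7 in migratory dendritic-like cells and Ccr9 in plasmacytoid dendritic-like cells.

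For each receptor, the genes most like it over 17 class and library values were named by Pearson correlation of log2(CPM + 10). The 8721 genes searched were listed in both libraries and had at least 50 CPM in 1 or more of the values. The markers that named the cell classes were left out of the search. The values share libraries and depth, so these are descriptions. For Cx3cr1 they were Csf1r (r = 0.967), Trem2 (0.957), Ccl12 (0.951), C1qa (0.951) and C1qb (0.949). For Ccr2 they were Isg20 (0.872), Fgl2 (0.846), Plin2 (0.835), Ly6a (0.830) and Hspa8 (0.829). For Ccr7 they were Gypc (0.890), Myo1g (0.884), Fas (0.849), Gm10851 (0.838) and H2-Eb2 (0.830).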

How the data were processed

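Per the labels' protocols, CD45-positive cells were sorted and libraries made with a 10x 3' kit. The submitters' processing notes name Cell Ranger 3.1 and mm10. The authors deposited raw UMI counts, with genes in rows and cells in columns, and the lowest cell total was 1001 UMIs in Igfbpl1 and 1003 in PBS. Cells were named from 22 marker lists of at most 10 genes by the number of markers detected (3 or more, lead of 1). UMIs were summed over the cells of a class and library and scaled to 1000000 UMIs of the class (CPM). Exact 95% intervals came from scipy 1.17.1 (Poisson, conditional binomial, Clopper-Pearson), and ratios needed 20 cells per library. For a gene at 0 in PBS the exact lower limit of the ratio is given, and 3 counts mark the floor of some values at 0. Shares were taken after thinning to 1000 UMIs (seed 2). Log2 differences had 10 CPM added, measured genes had a mean of 50 CPM and 20 UMIs, and called meant 1.5-fold. Clusters came from scanpy 1.11.5 (2000 variable genes without the 3 receptors, 30 principal components, 15 neighbours, resolution 0.8, 20 clusters). Scrublet called 62 Igfbpl1 and 6 PBS doublets, kept in the values. The T subsets compare counts of naive and effector markers. Gene positions are those of GENCODE M21. Some genes of the lists are not reported here. Ratios and their intervals were tested on simulated class totals, which had no spread between cells. Thinning was checked on some of the real cells, for a total of 1000 UMIs per cell. The receptors, lists and rules were chosen with earlier results of these data known, and the naming rule, the 4 microglial genes and the cluster splits after the values were seen. Named were the 3 receptors, all listed ligands, at most 3 further members of highest level per list, and 5 genes most like each receptor.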

Additional observations from a re-analysis of the deposited data

Results flagged for a closer look

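Ccr7 differed in opposite directions in different cell classes. In microglia-like cells it was higher in Igfbpl1, with 14 UMIs against 0 in PBS. The difference was 3.44-fold if 3 counts are taken for PBS, and at least 2.45-fold by the lower limit of the interval. In T-like cells Ccr7 was lower, with a ratio of 0.416. In microglia-like cells of clusters 0, 1, 4, 5 and 12 Ccr7 had 6 UMIs in Igfbpl1 against 0 in PBS, with a lower limit of the ratio of 0.934. In T-like cells of the T cluster the ratio was 0.467 (0.217 to 1.09), and in those with more naive markers 0.971 (0.408 to 2.42), so none of these intervals excludes a ratio of 1. Cx3cr1 also differed in opposite directions. Its ratio was 0.710 in microglia-like cells, whereas it was 12.9 in T-like cells (96 UMIs in Igfbpl1 against 1 in PBS, 2.26 to 514) and 1.72 in B-like cells (1.02 to 2.93). These differences between classes were not tested. In T-like cells of the T cluster alone Cx3cr1 had 17 UMIs in Igfbpl1 and 1 in PBS, a ratio of 3.18 (0.498 to 133), and in B-like cells of the B cluster 8 UMIs in Igfbpl1 and 27 in PBS, a ratio of 0.859 (0.337 to 1.94). In both ratios of B-like cells 1 PBS cell held 21 of the 27 UMIs, and the intervals do not cover such an uneven spread over cells.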

How the results depend on the processing

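Of 162 values recomputed under other choices, 120 stayed within their interval or count limit, 42 moved and 0 reversed. No paired analysis was possible because each treatment had 1 library. In 1 of these choices every cell was thinned before naming, so the classes themselves changed. The Igfbpl1 microglia-like class then held 1270 cells in place of 1609. Cx3cr1 in Igfbpl1 microglia-like cells (2144 CPM) became 2194 with at least 4 markers, 2218 with clusters as classes, 2199.5 without doublets, 2365 with thinning before naming, 2238 as a mean over cells, 1874 in Xist-only and 2475 in Y-only cells. Leaving out clusters 3 and 18, chosen after seeing the data, gave 2274 CPM in Igfbpl1 and 3092 in PBS, and Y-only cells gave 3104 in PBS. The Cx3cr1 ratio of 0.710 became 0.782 with thinning before naming, 0.770 with median-ratio scaling, 0.745 as a mean over cells, 0.614 in Xist-only cells, 0.797 in Y-only cells and 0.736 without clusters 3 and 18. Ccr2 in Igfbpl1 microglia-like cells (22.0 CPM) became 6.76 with clusters as classes, 15.2 without doublets, 3.15 with thinning before naming, 10.4 as a mean over cells, 29.8 in Xist-only cells, 6.52 in Y-only cells and 2.77 without clusters 3 and 18. Its ratio of 7.21 became 16.4 with at least 4 markers (6.15 to 61.5), 19.3 with clusters (3.17 to 792) and 3.07 as a mean over cells. With thinning before naming the ratio became 2.26 (0.223 to 111) and in Y-only cells 1.95 (0.534 to 7.81), and both intervals include 1. The thinned share of these cells with a Ccr2 UMI, 0.808%, became 0.368% with clusters, 0.315% with thinning before naming and 2.86% unthinned. Ccr2 in Igfbpl1 monocyte-like cells (322 CPM) became 206 without clusters 3 and 18. Ccr7 in migratory dendritic-like cells (1572 CPM) became 1818 with thinning before naming, 1749 as a mean over cells and 1189 in Xist-only cells. Unthinned shares of cells were 94.3% in Igfbpl1 and 98.4% in PBS for Cx3cr1 in microglia-like cells, 54.7% for Ccr2 in monocyte-like cells and 85.7% for Ccr7 in migratory dendritic-like cells. Other receptors at least 1.5-fold higher in microglia-like cells numbered 1 in place of 0 with a minimum of 10 CPM, and 1 with no minimum. Signalling genes higher numbered 2 in place of 1 with median-ratio scaling. The cause of these shifts was not tested. With 1 pooled library per treatment, the spread between mice is not known, and named PBS classes other than microglia, B, T and retinal neurons held too few cells for a ratio.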
